A study of Mus musculus with 4 samples.

Results

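Killer lectin-like receptors are C-type lectin-like molecules on natural killer (NK) cells and on antigen-experienced T cells, and most of their genes lie together in the NK gene complex. The 6 receptor genes described here were Klrd1, Klrc1, Klrc2, Klrk1, Klre1 and Klrg1, chosen by symbol among the 32285 genes listed in the deposited matrices, and each symbol matched 1 gene. The T cells came from subcutaneous tumors that the Tsc2-deficient mouse kidney tumor line 105K formed in wild-type male C57BL/6J mice aged 6 weeks. The tumor cells carried a control hairpin (sh-NC) or a hairpin against B7-H3 (sh-B7-H3 (1)), an immune checkpoint protein encoded by Cd276, and both were puromycin-selected pools rather than single clones. For each group 80 tumors were pooled, live CD3+ cells were sorted by flow cytometry, and the pool was stained with oligonucleotide-tagged antibodies and read by CITE-seq, which counts RNA and surface tags in the same cells. Each group had 2 libraries. The submitters' design text has them as duplicate lanes of the pool, while the paper calls them independent samples, and nothing in the files settles this. The first reading was followed, under which every p-value below measures the spread between lanes and not between mice. The hairpins acted in the tumor cells, which the sort removed, so the T cell libraries held no check of the knockdown.

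CD94, the product of Klrd1, pairs with NKG2A (Klrc1) to form an inhibitory receptor and with NKG2C (Klrc2) to form an activating receptor, and both pairs recognise the nonclassical MHC molecule Qa-1, encoded by H2-T23. NKG2D (Klrk1) recognises stress-induced ligands of the Raet1, H60 and Ulbp1 genes and signals through the adaptor DAP10 (Hcst). The product of Klre1 lacks signalling motifs of its own and pairs with KLRI1 or KLRI2, of which the first is inhibitory and the second activating. KLRG1 binds cadherins, among them E-cadherin (Cdh1), carries an inhibitory motif, and is known as a marker of terminal effector T cells and of a subset of regulatory T cells. In T cells these receptors tune the threshold for killing and cytokine release.

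The first 45 coding bases of each receptor's transcript are shown because the inhibitory and activating members differ in this stretch, which encodes the cytoplasmic end of these type II membrane proteins. The capitals mark the 6 codons of a match to the immunoreceptor tyrosine-based inhibitory motif (ITIM), the docking site of inhibitory phosphatases. The transcripts were those of GENCODE M21 on GRCm38, read 5′ to 3′ on the coding strand.
Klrd1: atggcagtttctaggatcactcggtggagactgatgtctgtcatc
Klrc1: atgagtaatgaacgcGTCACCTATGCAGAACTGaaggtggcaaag
Klrc2: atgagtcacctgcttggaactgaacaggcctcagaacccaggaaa
Klrk1: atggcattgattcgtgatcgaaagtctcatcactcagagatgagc
Klre1: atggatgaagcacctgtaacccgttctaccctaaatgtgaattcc
Klrg1: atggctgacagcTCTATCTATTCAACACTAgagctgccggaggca
The match began at codon 6 in Klrc1 and at codon 5 in Klrg1, and the first 60 codons of the other 4 genes held none. Full coding lengths were 198 codons for Klrd1, 244 for Klrc1, 238 for Klrc2, 232 for Klrk1, 226 for Klre1 and 188 for Klrg1.

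Of the 6 genes, 5 lay in a cluster on chromosome 6 within 101.1 kb (GRCm38, GENCODE M21 gene bounds), with Klrc3 between Klrk1 and Klrc2. Klre1 (ENSMUSG00000050241) spanned chr6:129577905-129585827 and Klrd1 (ENSMUSG00000030165) chr6:129591782-129598775, both on the plus strand. Klrk1 (ENSMUSG00000030149, chr6:129610323-129623864), Klrc2 (ENSMUSG00000052736, chr6:129647496-129660689) and Klrc1 (ENSMUSG00000030167, chr6:129666015-129678973) followed on the minus strand. Klrg1 (ENSMUSG00000030114, chr6:122270596-122282882, minus strand) lay 7.3 Mb away. The counts come from the 3′ ends of transcripts, and there Klrc1 and Klrc2 share sequence: 46.25% of the 60-base words in the last 400 bases of Klrc1 transcripts also occurred in those of Klrc2, against 13.2% of the Klrc2 words in Klrc1. The split of reads between Klrc1 and Klrc2 is therefore uncertain, whereas no such word was shared by any other pair of the 6 genes.

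Promoters are shown for the 4 genes of the cluster that had an entry among the RefSeq promoters (GRCm38.p6), since these genes moved together in the results below. Each run holds the 250 bases before an annotated start, 5′ to 3′ on the gene's strand, with capitals marking the core motif of Runx factors (TGTGGT, or ACCACA on the other strand).
Klre1, chr6:129577963-129578212, plus strand: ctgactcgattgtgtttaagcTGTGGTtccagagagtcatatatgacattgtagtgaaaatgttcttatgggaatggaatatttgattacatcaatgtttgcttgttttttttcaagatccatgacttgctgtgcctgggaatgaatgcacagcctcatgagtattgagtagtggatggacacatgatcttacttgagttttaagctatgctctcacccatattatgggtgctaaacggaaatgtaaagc
Klrk1, chr6:129623865-129624114, minus strand: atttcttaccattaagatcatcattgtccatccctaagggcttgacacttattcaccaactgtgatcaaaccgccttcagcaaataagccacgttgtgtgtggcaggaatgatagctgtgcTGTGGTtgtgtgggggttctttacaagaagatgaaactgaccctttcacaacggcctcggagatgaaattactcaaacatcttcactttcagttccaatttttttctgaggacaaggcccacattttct
Klrc2, chr6:129660557-129660806, minus strand: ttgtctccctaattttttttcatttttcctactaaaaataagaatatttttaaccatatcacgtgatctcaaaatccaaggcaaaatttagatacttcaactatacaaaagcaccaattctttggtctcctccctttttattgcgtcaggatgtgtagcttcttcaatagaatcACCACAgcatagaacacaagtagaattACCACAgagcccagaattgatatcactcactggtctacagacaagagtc
Klrc1, chr6:129678974-129679223, minus strand: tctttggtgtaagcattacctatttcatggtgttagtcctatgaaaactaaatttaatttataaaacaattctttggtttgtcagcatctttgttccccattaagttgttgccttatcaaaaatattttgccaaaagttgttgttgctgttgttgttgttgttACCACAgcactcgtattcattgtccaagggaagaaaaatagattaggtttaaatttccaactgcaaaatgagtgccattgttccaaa
The Runx core was found once in Klre1, Klrk1 and Klrc1 and at 2 places in Klrc2, and it was present in 14.05% of all 32851 promoters of that length. For Klre1 a second annotated start had none in its window. The T-box core (AGGTGT, or ACACCT) was in no window of these 4 genes and in 11.83% of all promoters. These are matches of letters in a window, with no binding measured.

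The deposited matrices held 12112 and 10589 called cells in the sh-NC libraries and 7030 and 9129 in the sh-B7-H3 (1) libraries, with between 79224898 and 132820909 RNA UMIs a library. After filters on genes, mitochondrial reads and doublets 18468 cells remained, and 13656 of them could be called Cd4 cells (a Cd4 UMI, under 3 Cd8a and Cd8b1 UMIs, no Foxp3 UMI), Cd8 cells (at least 3 Cd8a and Cd8b1 UMIs, no Cd4 or Foxp3 UMI) or Foxp3 cells (a Cd4 and a Foxp3 UMI, under 3 Cd8 UMIs). Between 17 and 35 cell barcodes were shared by any pair of libraries. Summed Cd8a and Cd8b1 lay at 1762 to 1914 CPM in Cd8 cells. In Cd4 cells they lay at 28.3 and 27.7 CPM in sh-NC against 50.4 and 48.1 CPM in sh-B7-H3 (1), with 1 of the 2 called higher by the rule given below. A summed list of regulatory T cell genes (Foxp3, Il2ra, Ikzf2 and Ctla4) lay at 1747 to 2118 CPM in Foxp3 cells. In Cd4 cells it lay at 65.4 and 73.1 against 230 and 227 CPM. Since Cd8a, Cd8b1 and Foxp3 define the classes, these values are no check of them. The part of Cd8 RNA in the receptor values of Cd4 cells was not tested. Levels are in CPM, the UMIs of a gene scaled to a common total, taken over the summed counts of a class in a library, and are compared within a gene only.

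Cells were split further at 20 UMIs of Ccl5, a chemokine of effector and memory T cells. In Cd4 cells 7.74% and 9.34% lay at or above this threshold in the sh-NC libraries and 47.3% in both sh-B7-H3 (1) libraries. In Cd8 cells the shares were 14.6% and 18.7% against 63.3% and 61.1%, and in Foxp3 cells 4.90% and 4.79% against 11.2% and 16.1%. In each lineage both sh-B7-H3 (1) libraries lay above both sh-NC libraries (exact permutation p = 0.3333, 2-sided, the smallest that 2 against 2 libraries allow). Cells at or above the threshold are called Ccl5-high below, and the rest Ccl5-low. Foxp3 cells had 9 to 23 Ccl5-high cells a library, too few for a test.

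All 6 receptor genes were higher in Cd4 cells of sh-B7-H3 (1) tumors, and 5 of the 6, all but Klrd1, were higher in Cd8 cells. The count in Cd8 cells held under all 14 processing alternatives tried on whole lineages, while in Cd4 cells Klrg1 lost its call in 9 of the 14 and left 5 genes called. Klrc2 in Cd4 cells passed the filter on low counts only through the sh-B7-H3 (1) libraries, so its place in the count carries no weight of its own. With no such filter 5 of the 6 were called in Cd4 cells, all but Klrg1, beside 1419 of all 17996 genes tested. A gene was called changed at an adjusted p under 0.05 (edgeR quasi-likelihood test on the summed counts, Benjamini-Hochberg adjustment over all genes tested) and a change of at least 2-fold. By that rule 11.5% of the 11330 genes tested in Cd4 cells, 9.77% of the 11567 in Cd8 cells and 0.614% of the 7822 in Foxp3 cells were called in either direction. In Foxp3 cells 2 receptor genes, Klrd1 and Klrg1, passed the filter on low counts, and Klrd1 was called higher. Klrd1 passed the filter there only through the sh-B7-H3 (1) libraries, so this call carries no weight of its own. With no filter 1 of the 6 genes was called in Foxp3 cells, beside 26 of all 14675 genes tested. Within Ccl5-high cells all 6 genes were tested and none was called, neither in Cd4 cells, where 0.857% of all genes were called, nor in Cd8 cells, where 2.08% were. Among Ccl5-high Cd4 cells 2 of the 6 had an unadjusted p under 0.05 in the edgeR fit, beside 1329 of all 8752 genes tested. Among Ccl5-high Cd8 cells 2 of the 6 did, beside 2155 of all 9569 genes. DESeq2 also called none of the 6 in either class, giving no adjusted p for 5 of the 6 in Cd4 cells. The median log2 fold change of all genes tested lay between -0.004 and 0.008 in every class.

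**Figure D1:**
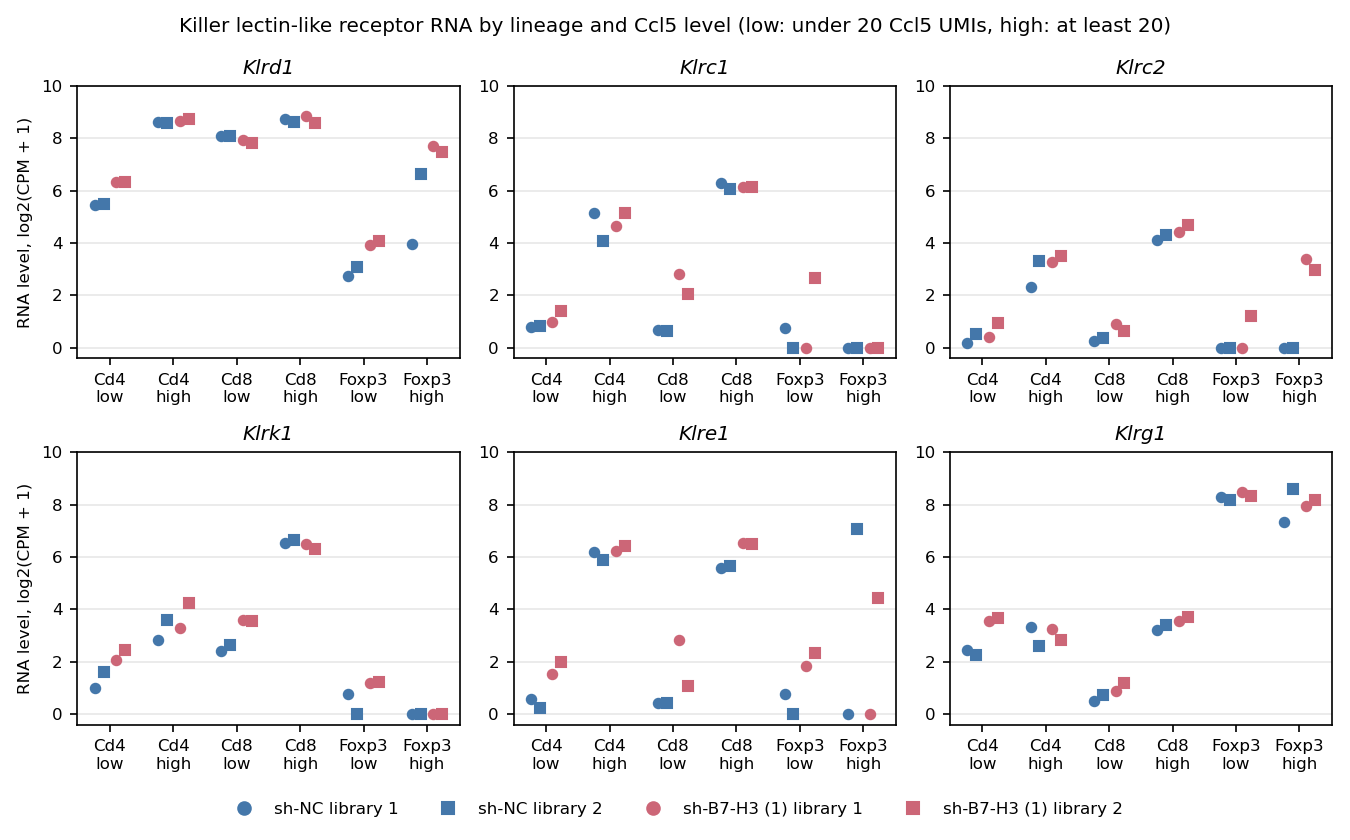
Level of each receptor gene, as log2(CPM + 1), in Cd4, Cd8 and Foxp3 cells split at 20 Ccl5 UMIs, with a point for each of the 4 libraries coloured by group and no error bar, since every library is shown. Klrg1 stands highest in Foxp3 cells and the other 5 genes in Ccl5-high Cd4 or Cd8 cells, except for Klre1 in sh-NC replicate 2. There the highest point is that of 9 Ccl5-high Foxp3 cells, of which 1 cell held all 8 Klre1 UMIs. Within Ccl5-high cells the points of the groups lie close together for most genes.

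Klrd1 (CD94) rose in Cd4 cells from 65.8 and 69.9 CPM in the sh-NC libraries to 233 and 242 CPM in the sh-B7-H3 (1) libraries (67.8 ± 2.93 against 238 ± 6.25 CPM, SD, n = 2). The groups did not overlap, and the log2 fold change was 1.72 ± 0.05 (SE; adjusted p = 7.9e-18, edgeR). Cd8 cells already carried Klrd1 at 290.4 and 291 CPM in sh-NC, against 364 and 311 CPM in sh-B7-H3 (1), a log2 difference of 0.13 ± 0.04 that was under the fold limit (adjusted p = 0.014, edgeR). The fold changes of the lineages differed: Cd4 exceeded Cd8 by 1.60 ± 0.08 on the log2 scale (adjusted p = 1.1e-16, edgeR interaction term), in a comparison in which 0.939% of 11821 genes were called. This and every other interaction term took the sums of 1 library as independent, which they are not, so these p-values may be too small. In Foxp3 cells Klrd1 rested on few molecules, 9 and 16 UMIs against 33 and 38, or 6.11 and 11.6 CPM against 37.9 and 42.3 CPM (log2 fold change 2.20 ± 0.33, adjusted p = 0.00033, edgeR). In sh-B7-H3 (1) 22 of the 33 UMIs came from 1 Ccl5-high cell in replicate 1 and 26 of the 38 from 3 such cells in replicate 2, so this value and each difference between lineages that involves it rest on those cells. With stricter lineage thresholds Klrd1 did not pass the filter on low counts there and was not tested, and DESeq2 gave it no adjusted p; its log2 fold change was 1.65 to 2.68 in the 13 other settings that gave a value. Cd8 and Foxp3 cells also differed in this response (Cd8 minus Foxp3 -2.10 ± 0.36, adjusted p = 0.00015, edgeR; 2% of genes called), whereas Cd4 minus Foxp3 was -0.50 ± 0.38 (adjusted p = 0.59, edgeR; 2.35% called).

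The split by Ccl5 showed where Klrd1 differed. Ccl5-high Cd4 cells held 390 and 379 CPM in sh-NC and 401 and 421 CPM in sh-B7-H3 (1), groups that did not overlap but differed by 0.17 ± 0.07 (adjusted p = 0.20, edgeR). Ccl5-low Cd4 cells held far less, 42.6 and 43.6 CPM against 79.5 and 80.6 CPM, and differed by 0.94 ± 0.08, just under the fold limit (adjusted p = 2.1e-10, edgeR). The difference between these fold changes was -0.74 ± 0.12 (adjusted p = 4.4e-05, edgeR; 1.75% of genes were called in this comparison). The Ccl5-low difference sat next to the threshold: Cd4 cells with no Ccl5 UMI held 39.8 and 35.8 against 23.995 and 51.2 CPM of Klrd1, values that overlapped, and those with 1 to 4 held 45.8 and 81.1 against 37.4 and 44.6 CPM, lower in both sh-B7-H3 (1) libraries. Cd4 cells with 5 to 19 Ccl5 UMIs, 15 and 7 in sh-NC against 30 and 65 in sh-B7-H3 (1), held 32 and 0 against 152 and 165 Klrd1 UMIs. Cd8 cells showed another picture, with 421 and 395 against 459 and 387 CPM in Ccl5-high cells and 274 in both sh-NC libraries against 247 and 228 CPM in Ccl5-low cells. Neither Cd8 difference was called (0.09 ± 0.06, adjusted p = 0.36, and -0.12 ± 0.04, adjusted p = 0.076, edgeR). Ccl5-low Foxp3 cells held 8 and 10 against 11 and 12 Klrd1 UMIs, which did not pass (1.20 ± 0.46, adjusted p = 0.25, edgeR).

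Klrc1 (NKG2A), the inhibitory partner of CD94, rose in both lineages. Cd8 cells held 9.30 and 9.62 CPM in sh-NC and 41.0 and 37.7 CPM in sh-B7-H3 (1) (219 and 198 against 318 and 428 UMIs; log2 fold change 1.97 ± 0.09, adjusted p = 8.5e-23, edgeR). Cd4 cells held 2.98 and 1.97 against 12.1 and 17.3 CPM (44 and 25 against 72 and 142 UMIs; 2.48 ± 0.22, adjusted p = 5.9e-09, edgeR). Nearly all of the Cd8 molecules sat in Ccl5-high cells, between 93.4% and 96.0% of the Klrc1 UMIs in each library. Inside those cells the level was 77.3 and 65.8 CPM in sh-NC against 69.6 and 69.4 CPM in sh-B7-H3 (1), so the groups overlapped (0.01 ± 0.10, adjusted p = 0.98, edgeR). Ccl5-high Cd4 cells overlapped as well, at 34.5 and 16.1 against 24.2 and 34.7 CPM (0.33 ± 0.28, adjusted p = 0.66, edgeR).

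Klrc2 (NKG2C), the activating partner, moved alike at a lower count. Cd8 cells held 2.04 and 2.87 CPM against 11.7 and 13.1 CPM (48 and 59 against 91 and 149 UMIs; 2.29 ± 0.17, adjusted p = 3.2e-15, edgeR), and Cd4 cells 0.406 and 1.103 against 4.36 and 5.36 CPM (6 and 14 against 26 and 44 UMIs; 2.64 ± 0.36, adjusted p = 3.8e-06, edgeR). The Cd4 value was 2.05 without sh-NC replicate 1 and 3.46 without sh-NC replicate 2, and passed in both. The shared 3′ sequence makes the counts of Klrc1 and Klrc2 uncertain, and how reads from it were assigned was not tested. In Ccl5-high Cd8 cells the sh-B7-H3 (1) libraries, at 20.6 and 24.7 CPM, lay above the sh-NC libraries, at 16.5 and 18.9 CPM, by 0.41 ± 0.18, which did not pass the test (adjusted p = 0.16, edgeR). In Ccl5-high Cd4 cells the values were 4.06 and 9.04 against 8.77 and 10.3 CPM (0.62 ± 0.44, adjusted p = 0.55, edgeR), with 0.16 to 1.32 when a library was left out. The activating and the inhibitory partner thus rose in the same lineages, and the Cd4 and Cd8 fold changes of Klrc1 and Klrc2 were not shown to differ (Cd4 minus Cd8 0.52 ± 0.26 and 0.37 ± 0.42).

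Klrk1 (NKG2D), the activating receptor for stress ligands, was mainly a Cd8 transcript. Cd8 cells held 14.2 and 18.1 CPM in sh-NC and 54.2 and 45.7 CPM in sh-B7-H3 (1) (334 and 373 against 420 and 519 UMIs; 1.54 ± 0.09, adjusted p = 1.9e-19, edgeR). Cd4 cells held 1.35 and 2.76 against 5.86 and 10.7 CPM (20 and 35 against 35 and 88 UMIs; 1.99 ± 0.30, adjusted p = 1.3e-05, edgeR). Within Ccl5-high Cd8 cells the sh-B7-H3 (1) libraries were the lower ones, at 89.3 and 77.7 CPM against 91.9 and 98.4 CPM, but the difference did not pass (-0.15 ± 0.09, adjusted p = 0.32, edgeR). Ccl5-low Cd8 cells held 4.26 and 5.19 against 11.2 and 10.8 CPM and were called (1.32 ± 0.19, adjusted p = 3.0e-05, edgeR). The 2 fold changes differed by -1.45 ± 0.26 (Ccl5-high minus Ccl5-low, adjusted p = 0.00027, edgeR; 1.1% of genes called in this comparison).

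Klre1 had the highest fold change estimate of the 6 genes in both lineages with all libraries in the fit. In Cd4 cells Klrc2 stood higher without sh-NC replicate 2, at 3.46, whereas Klre1 was at most 2.97 when a library was left out. Cd4 cells held 5.28 and 4.73 CPM in sh-NC and 36.2 and 42.0 CPM in sh-B7-H3 (1) (78 and 60 against 216 and 345 UMIs; 2.88 ± 0.13, adjusted p = 4.6e-14, edgeR). Cd8 cells held 5.605 and 7.09 against 53.4 and 47.7 CPM (132 and 146 against 414 and 542 UMIs; 2.91 ± 0.09, adjusted p = 7.4e-28, edgeR), and the Cd4 and Cd8 fold changes were not shown to differ (-0.03 ± 0.22). In the main fit Klre1, unlike the CD94 and NKG2 genes, also passed the adjusted p inside Ccl5-high Cd8 cells. Klrd1 and Klrc2 passed it there in some alternatives, with log2 fold changes of at most 0.58, and no test compared the genes. Ccl5-high Cd8 cells held Klre1 at 46.9 and 49.03 CPM against 92.2 and 90.5 CPM, a log2 difference of 0.97 ± 0.10 that passed the adjusted p (3.2e-11, edgeR) and lay just under the 2-fold limit. With 5 of the other processing choices, among them stricter lineage calls and a Ccl5 threshold of 10 UMIs, it passed the fold limit too, also when cells with a Ncr1, Klrb1c or Trdc UMI, genes of NK and gamma-delta T cells, were left out. In the same Ccl5-high Cd8 cells the summed level of 6 effector genes (Ccl5, Nkg7, Gzmk, Gzmb, Prf1 and Ifng) was 21429 and 22510 against 28268 and 28329 CPM. Of the 6, among them Ccl5, which set the split, 0 were called (median log2 fold change 0.20). Of the NK marker genes tested there 2 of 4 were called lower, and of the gamma-delta genes 1 of 3 was called higher. The part of these lists in the Klre1 difference was not tested. Ccl5-high Cd4 cells held 72.1 and 58.3 against 73.7 and 85.4 CPM, higher in both sh-B7-H3 (1) libraries without passing (0.37 ± 0.15, adjusted p = 0.20, edgeR).

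Finer bins of Ccl5 placed that Klre1 difference. In Cd8 cells with 20 to 79 Ccl5 UMIs Klre1 lay at 23.5 and 12.8 CPM in sh-NC against 101 and 49.5 CPM in sh-B7-H3 (1). In cells with at least 80 Ccl5 UMIs the values were 69.8 and 80.3 against 88.3 and 109.7 CPM. The groups were apart in both bins, more so in the lower one, and no test was made of the bins. Klrd1 was at 372 and 310 against 590 and 346 CPM in the lower bin, which overlapped, and at 469 CPM in both sh-NC libraries against 404 and 406 CPM in the upper.

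Klrg1 stood apart from the other 5 genes: it was highest in Foxp3 cells in every library, and there no change passed the test. Foxp3 cells held 302 and 289.7 CPM in sh-NC and 342 and 313 CPM in sh-B7-H3 (1) (444 and 400 against 298 and 281 UMIs), a difference of 0.17 ± 0.10 that did not pass (adjusted p = 0.47, edgeR). Cd8 cells held 1.32 and 1.89 against 6.32 and 6.86 CPM (31 and 39 against 49 and 78 UMIs; 1.98 ± 0.22, adjusted p = 5.7e-10, edgeR), and within Ccl5-high Cd8 cells 8.26 and 9.46 against 10.8 and 11.99 CPM (0.42 ± 0.25, adjusted p = 0.35, edgeR). The Cd8 fold change exceeded that of Foxp3 cells by 1.79 ± 0.23 (adjusted p = 8.0e-07, edgeR) and that of Cd4 cells, where Cd4 minus Cd8 was -0.96 ± 0.28 (adjusted p = 0.044, edgeR, under the fold limit).

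In Cd4 cells Klrg1 was at 4.80 and 3.86 CPM against 9.72 and 9.14 CPM and sat on the fold limit (1.01 ± 0.19, adjusted p = 0.0002, edgeR). This value rested on 21 and 17 cells with a Klrg1 UMI in sh-NC and 20 and 28 in sh-B7-H3 (1), although none of these cells had a Foxp3 UMI. At least 2 of the regulatory T cell genes Il2ra, Ikzf2 and Ctla4 were detected in 71.4% and 58.8% of them in sh-NC and in 50% of them in both sh-B7-H3 (1) libraries, against 3.75% to 9.71% of the other Cd4 cells. With stricter lineage calls, which left 8 or 9 Klrg1 cells a library, the direction turned: 6.41 and 6.57 CPM in sh-NC against 4.28 and 4.74 CPM in sh-B7-H3 (1) (log2 fold change -0.61, adjusted p = 0.12, edgeR). The call was also lost on the fold limit alone under 8 other alternatives, with log2 fold changes of 0.85 to 0.999: without sh-NC replicate 2 (0.87), without sh-B7-H3 (1) replicate 1 (0.97), without NK and myeloid marker cells, and with other settings of the low-count, doublet (at both settings tried), gene number and mitochondrial filters. The regulatory T cell list itself moved with the group in Cd4 cells, from 65.4 and 73.1 to 230 and 227 CPM, with 2 of its 3 tested genes called higher (Ikzf2 and Ctla4). Within Ccl5-high Cd4 cells it was high in both groups, at 329 and 311 against 361 and 373 CPM, with none of its genes called. In Ccl5-low Cd4 cells, which held most of the Klrg1 UMIs, it rose from 46.5 and 52.8 to 109 and 96.3 CPM, with 2 of its 3 tested genes called higher. The part of Foxp3-lineage cells without a captured Foxp3 UMI in the Cd4 value was not tested.

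**Figure D2:**
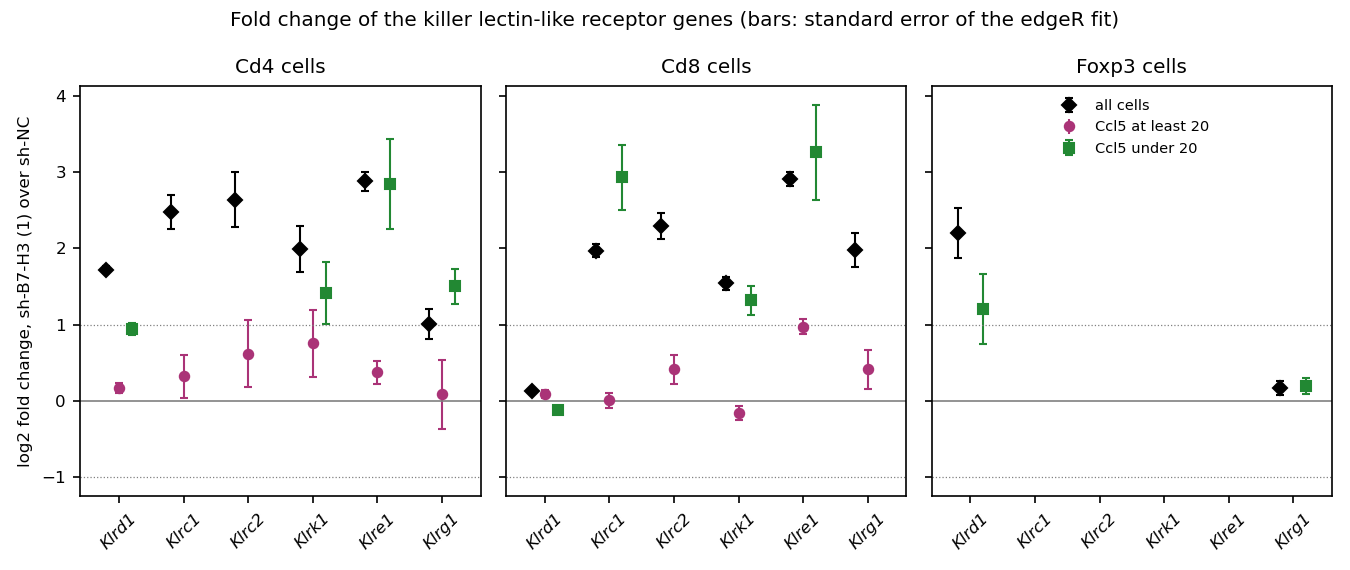
Log2 fold change (sh-B7-H3 (1) over sh-NC) of each receptor gene in Cd4, Cd8 and Foxp3 cells, taken over all cells of the lineage, over Ccl5-high cells and over Ccl5-low cells. Points are edgeR estimates, bars are standard errors, the solid line marks no change and the dotted lines the 2-fold limit, and genes that did not pass the filter on low counts have no point. In Ccl5-high cells every estimate lies under the limit, with Klre1 in Cd8 cells just below it at 0.97.

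Ccl5-low cells held few of these molecules, and 4 of the 6 genes passed the filter on low counts there in each of Cd4 and Cd8 cells. Some of them passed only through the sh-B7-H3 (1) libraries, so the numbers of calls carry no weight of their own. With no filter 3 of the 6 genes were called in each lineage, the same number as with it. In Cd4 cells, where 2.41% of all genes were called in either direction, the calls were Klrk1 (14 and 24 against 10 and 19 UMIs; 1.41 ± 0.41, adjusted p = 0.022, edgeR), Klre1 (7 and 2 against 6 and 13 UMIs; 2.85 ± 0.59, adjusted p = 0.0011; 0.507 and 0.171 against 1.92 and 3.01 CPM, and 2.33 to 3.79 leaving out 1 sh-NC replicate) and Klrg1 (62 and 44 against 34 and 51 UMIs; 1.501 ± 0.23, adjusted p = 1.6e-05). These calls depended on single libraries: 1 was left without either sh-NC replicate or without sh-B7-H3 (1) replicate 2, and 2 without sh-B7-H3 (1) replicate 1. In Cd8 cells, where 1.17% of all genes were called, the calls were Klrk1 as given above, Klrc1 (13 and 10 against 21 and 17 UMIs; 2.93 ± 0.42, adjusted p = 3.3e-05) and Klre1 (7 and 6 against 21 and 6 UMIs; 3.26 ± 0.63, adjusted p = 0.0011). DESeq2 gave none of these 3 an adjusted p. Klrc1 in Cd8 cells was 2.41 to 3.55 in the other settings in which it passed the filter, with a highest adjusted p of 0.027 by edgeR, whereas Klre1 was 1.78 without sh-B7-H3 (1) replicate 1, where it was not called (adjusted p = 0.31, edgeR), and 4.22 without replicate 2. Klrk1 was not called without sh-B7-H3 (1) replicate 2 (1.34, adjusted p = 0.053, edgeR). The effector genes moved in the same cells: their summed level was 122 and 108 against 714 and 787 CPM in Ccl5-low Cd4 cells and 672 and 699 against 957 and 972 CPM in Ccl5-low Cd8 cells. In each, 4 of the 6 were called higher (median log2 fold change 2.40 and 1.77). Ccl5, which set the split, is among the 6, so the sum is not independent of it. Other marker lists held called genes too. In Ccl5-low Cd4 cells 2 of 3 regulatory T cell, 1 of 2 Cd8, 1 of 2 NK, 1 of 3 gamma-delta and 1 of 6 myeloid genes tested were called higher. In Ccl5-low Cd8 cells 2 of 3 regulatory T cell, 2 of 3 gamma-delta and 2 of 7 myeloid genes were. The part of these lists in the receptor calls was not tested. In Ccl5-low Foxp3 cells neither receptor gene tested was called, against 0.293% of all genes, and DESeq2 called none either, giving Klrd1 no adjusted p. Klrg1 lay there at 309 and 286 against 355 and 318 CPM (0.20 ± 0.10, adjusted p = 0.43, edgeR).

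In Ccl5-low Cd8 cells part of the Klrc1 molecules were those of cells near the threshold. With 5 to 19 Ccl5 UMIs, 71 and 78 cells in sh-NC and 33 and 64 in sh-B7-H3 (1), Klrc1 was at 8.56 and 7.45 against 54.0 and 24.8 CPM (7 UMIs in each sh-NC library against 15 and 14). Klre1 had no UMI there in sh-NC and 14 and 1 UMIs in sh-B7-H3 (1), so for this gene it held in replicate 1 only. Fold changes of Ccl5-low and Ccl5-high Cd8 cells differed for Klrc1 (-2.87 ± 0.46, high minus low, adjusted p = 5.0e-05, edgeR) and Klre1 (-2.20 ± 0.54, adjusted p = 0.015, edgeR), and in Cd4 cells for Klre1 (-2.43 ± 0.65, adjusted p = 0.023, edgeR). For Klrd1 in Cd8 cells the same difference was 0.23 ± 0.08 (adjusted p = 0.16, edgeR) and for Klrg1 in Cd4 cells -1.39 ± 0.50 (adjusted p = 0.16, edgeR).

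Since the groups differed so much in their share of Ccl5-high cells, the level that sh-NC cells would give at the sh-B7-H3 (1) makeup was computed: the Ccl5-high and Ccl5-low levels of the sh-NC libraries were weighted by the UMI shares of these classes in the sh-B7-H3 (1) libraries. In Cd8 cells this gave 38.6 CPM for Klrc1 (34.6 to 42.8 over the library pairs) against 39.4 CPM measured, and 53.2 CPM for Klrk1 (49.9 to 56.5) against 49.9 CPM measured. For both genes the level at that makeup was close to the one measured, from a start of 9.30 and 9.62 CPM and from 14.2 and 18.1 CPM in the sh-NC libraries. Klre1 in Cd8 cells was furthest from it, with 25.9 CPM (24.6 to 27.1) at the sh-B7-H3 (1) makeup against 50.6 CPM measured, a ratio of 1.96. Klrg1 and Klrc2 lay between, at 5.00 against 6.59 CPM and 9.60 against 12.4 CPM, ratios of 1.32 and 1.29. Klrd1 came to 346 against 337 CPM.

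In Cd4 cells the same weighting gave 205 CPM for Klrd1 (202 to 208) against 238 CPM measured, a ratio of 1.16, while the measured fold was 3.50. Klrc1 came to 12.4 CPM (8.02 to 16.9) against 14.7 CPM, and Klre1 to 31.2 CPM (27.7 to 34.7) against 39.1 CPM, ratios of 1.18 and 1.25. Larger ratios were left for Klrc2 (1.49), Klrk1 (1.70) and Klrg1 (1.70), the 3 genes with the fewest Cd4 molecules. Over the 12 pairs of gene and lineage, the measured mean lay within the range of the weighted values for 2, above it for 8 and below it for 2. The 2 below, in Cd8 cells, sat on the edge of the range: Klrd1 at 337.28 against 337.31 CPM and Klrk1 at 49.942 against 49.945 CPM. For Klrc2 and Klrk1 in Cd4 cells, both counted above, the lower sh-B7-H3 (1) library lay inside the range. Only the 6 genes were weighted, so the share of all genes outside such a range is not known. The weighting is a description with no test, and a Ccl5 level is an outcome of these cells rather than a sorted gate.

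**Figure D3:**
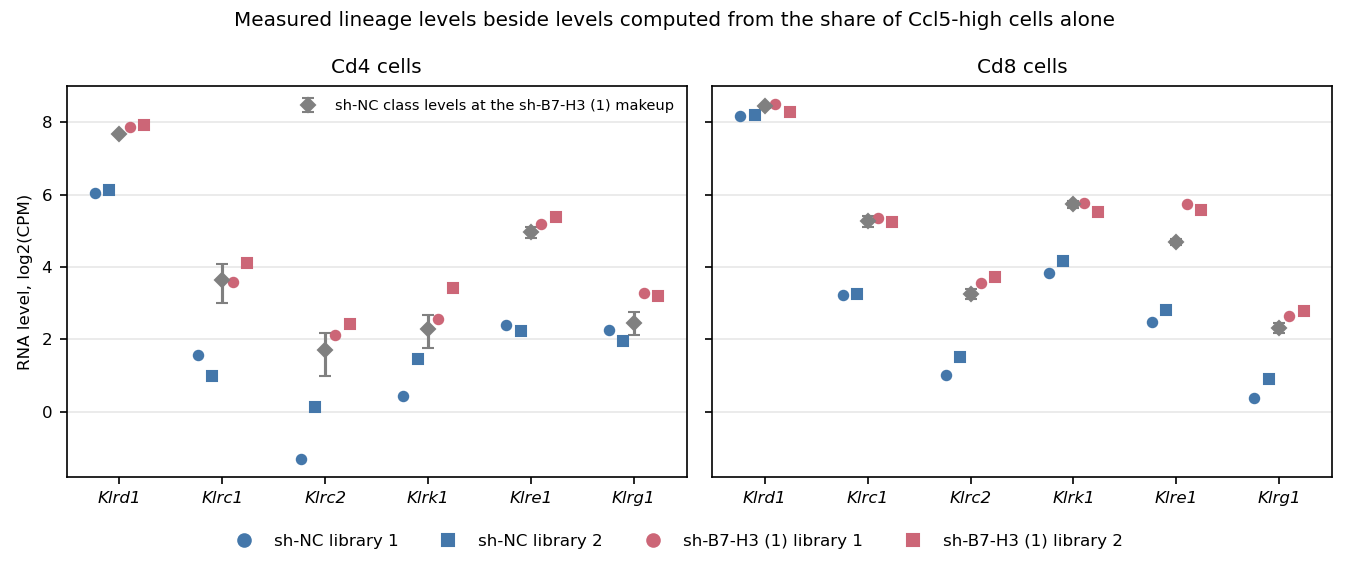
Level (log2 CPM) of each receptor gene in all Cd4 and all Cd8 cells, with a point for each library, beside grey diamonds for the level that sh-NC Ccl5-high and Ccl5-low cells would give at the makeup of sh-B7-H3 (1), whose bars run from the lowest to the highest library pair. The measured sh-B7-H3 (1) mean lies above the bar of the diamond in 8 of 12 cases, by the most for Klre1 in Cd8 cells (25.9 against 50.6 CPM) and next for Klrk1 and Klrg1 in Cd4 cells (ratios of 1.70). For Klrc2 and Klrk1 in Cd4 cells the lower sh-B7-H3 (1) library still lies within the bar.

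The split also showed where each receptor's molecules sat. Between 91.0% and 97.2% of the Klre1 UMIs of Cd4 cells and 94.7% to 98.9% of those of Cd8 cells were in Ccl5-high cells, in every library of either group. Klrk1 in Cd8 cells was less bound to them, with 73.4% and 75.3% in sh-NC and 90.7% and 88.6% in sh-B7-H3 (1). Klrd1 in Cd8 cells was mostly outside them in sh-NC, with 16.4% and 18.9% of UMIs in Ccl5-high cells against 69.4% and 64.9%. Klrg1 in Cd4 cells had 12.7% and 10.2% in sh-NC and 41.4% and 32.0% in sh-B7-H3 (1).

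Shares of cells with a UMI were taken after thinning each cell to 2000 UMIs. Cd4 cells with a Klre1 UMI made up 0.576% and 0.389% in sh-NC and 3.61% and 4.79% in sh-B7-H3 (1) (0.993%, 0.843%, 6.76% and 7.03% without thinning), and Cd8 cells with a Klrc1 UMI 1.53% and 1.87% against 5.69% and 6.02% (3.65%, 3.90%, 12.9% and 12.1% without thinning). Cd4 cells with a Klrd1 UMI made up 8.91% and 7.79% against 17.0% and 18.9% (20.2%, 20.04%, 27.3% and 28.96% without thinning). In Cd8 cells the share with a Klrd1 UMI went the other way, although the CPM was higher. There sh-B7-H3 (1) minus sh-NC was -6.42 percentage points, and -20.7 to -2.32 over 6 alternatives. As a reference within the same libraries, Foxp3 cells had a Klrd1 UMI in 0.490% and 2.66% in sh-NC and 3.01% and 4.96% in sh-B7-H3 (1), and a Klre1 UMI in 0%, 0.532%, 0.752% and 1.42% (median depths 6960, 6764, 6279 and 6072 UMIs a cell, against 7495, 8009, 6706 and 6837 in Cd4 cells). Ccl5-low Cd4 cells had Klrd1 in 7.38% and 5.94% against 7.40% and 9.48%, a smaller gap than in CPM, with sh-B7-H3 (1) replicate 1 next to sh-NC replicate 1. In Foxp3 cells no Klrc1, Klrc2 or Klrk1 UMI remained after thinning, which allows up to 1.47%, 1.60%, 2.26% and 2.13% of cells in the 4 libraries to show a UMI at that depth. At full depth Klrc1 was in 0.490%, 0%, 0% and 2.80% of Foxp3 cells, the last being 4 of 143 cells.

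In Ccl5-high Cd8 cells the shares of Klrc1 and Klrk1 overlapped between groups. Klrc1 was detected in 10.2% and 9.26% of Ccl5-high Cd8 cells in sh-NC and 8.50% and 9.41% in sh-B7-H3 (1), and Klrk1 in 11.5% and 9.26% against 11.9% and 9.62%. Klre1 was again apart, with 4.71% and 5.94% against 9.97% and 9.19% (10.1%, 11.4%, 14.4% and 13.7% without thinning), and Klrc2 was at 2.88% and 2.61% against 3.81% and 3.68%. In Ccl5-high Cd4 cells Klre1 was in 6.08% and 3.47% against 7.02% and 8.96%, and Klrk1 in 1.35% and 0.694% against 1.94% and 2.69%, higher in both sh-B7-H3 (1) libraries. In barcodes with under 100 UMIs, which hold free RNA, Klrd1 lay at 202, 207, 197 and 206 CPM in the 4 libraries and did not separate the groups. The other receptor genes were higher there in both sh-B7-H3 (1) libraries: Klre1 at 6.33 and 5.22 against 17.5 and 22.6 CPM, Klrc1 at 1.95 and 3.88 against 11.6 and 10.1, Klrc2 at 3.25 and 2.09 against 5.46 and 6.96, Klrk1 at 12.8 and 11.2 against 18.5 and 24.7, and Klrg1 at 8.44 and 12.2 against 18.2 and 12.9. Ccl5 lay at 1217 and 1422 against 4278 and 4750 CPM. Klrc1 in Ccl5-low Cd8 cells, at 6.03 and 3.12 CPM in sh-B7-H3 (1), lay below its free RNA level in these libraries. How much of each class's count came from free RNA was not tested.

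Receptors of the cluster were found together in the same cells. Among Ccl5-high Cd8 cells thinned to 2000 UMIs, Klrd1 was detected in 88.9% and 92.0% of cells with a Klre1 UMI in sh-NC (18 and 25 cells) and 89.7% and 91.8% in sh-B7-H3 (1) (68 and 85 cells). Without a Klre1 UMI the shares were 30.8%, 29.3%, 23.9% and 24.9%. Cells with Klrk1 had Klrd1 in 75.0%, 71.8%, 82.7% and 76.4%, against 23.5% to 29.1% of cells without, and cells with Klrc1 in 61.5%, 71.8%, 63.8% and 72.4%, against 26.7% to 30.3%. Each of these gaps was of like size in all 4 libraries, and both lanes of a group share a pool, so they are given as a description. Klrc2 showed the same, at 58.8% to 63.6% against 29.3% to 32.6%.

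Klrg1 did not follow. Ccl5-high Cd8 cells with a Klrg1 UMI had Klrd1 in 30.0%, 20.0% and 25.0% of 10, 15 and 20 cells in sh-NC replicate 2 and the sh-B7-H3 (1) replicates, near the 30.7% to 33.1% of cells without, and 4 such cells in sh-NC replicate 1 were too few. Klrg1 was in 0%, 0%, 0% and 1.18% of the Klre1 cells and in 1.099%, 2.53%, 2.44% and 2.26% of the others, too few cells to tell apart. Klrc1 was in 27.8%, 28.0%, 29.4% and 40% of the Klre1 cells against 6.19% to 9.34% of the others, and Klrk1 in 38.9%, 32.0%, 41.2% and 36.5% against 6.90% to 10.2%. The share of Ccl5-high Cd8 cells with at least 3 of the 6 genes was 5.50% and 5.46% in sh-NC and 7.77% and 7.14% in sh-B7-H3 (1), while 59.2% to 61.1% had none. In Ccl5-high Cd4 cells Klrd1 was in 75.9% and 82.0% of 29 and 50 Klre1 cells in sh-B7-H3 (1) and in 23.6% to 23.7% of cells without Klre1 in all 4 libraries.

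**Figure D4:**
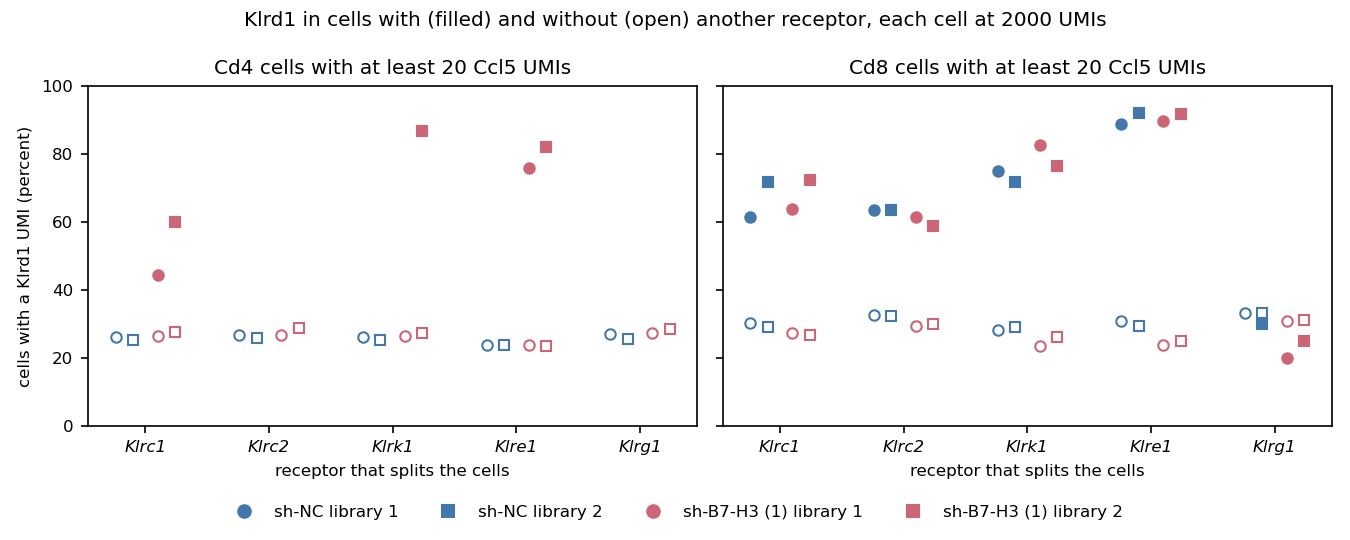
Percent of cells with a Klrd1 UMI among Ccl5-high cells that had a UMI of another receptor gene (filled points, drawn for at least 10 such cells) and among those that had none (open points), at 2000 UMIs a cell, with a point for each library. Cells with Klre1, Klrk1, Klrc1 or Klrc2 stand above those without in every library drawn, and cells with Klrg1 do not.

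The antibody panel held tags for 4 of the receptors, CD94, NKG2A, NKG2D and KLRG1. None was called changed in Cd4, Cd8 or Foxp3 cells by edgeR, nor by DESeq2, while 6.6% of the 197 tags were called in Cd4 cells, 6.6% in Cd8 cells and 2.54% in Foxp3 cells. Below the fold limit, the NKG2A tag differed by -0.40 ± 0.07 in Cd4 cells (adjusted p = 0.012, edgeR), -0.33 ± 0.07 in Cd8 cells (adjusted p = 0.023) and -0.26 ± 0.05 in Foxp3 cells (adjusted p = 0.014). The NKG2D tag was higher by 0.17 ± 0.04, 0.18 ± 0.03 and 0.28 ± 0.07 (adjusted p = 0.031, 0.012 and 0.034, edgeR). KLRG1 differed by 0.17 ± 0.04 in Cd8 cells (adjusted p = 0.035, edgeR) and by -0.29 ± 0.07 in Foxp3 cells (adjusted p = 0.030, edgeR). These small differences depend on the scaling: in CPM of all tag UMIs without TMM, NKG2A was at 2144 and 2202 against 2175 and 2430 in Cd8 cells and at 2335 and 2234 against 2448 and 2271 in Foxp3 cells, so that the direction of its means turned in these lineages. On the same scale KLRG1 in Foxp3 cells was at 5954 and 5839 against 5992 and 5928, and the isotype control mean was itself higher in sh-B7-H3 (1), at 440 CPM in both libraries against 343 and 327 in Cd4 cells and at 405 and 431 against 297 and 288 in Cd8 cells. The CD94 tag was not above background: a Cd4 cell carried 1.11 and 0.988 CD94 tags in sh-NC and 1.49 and 0.950 in sh-B7-H3 (1), near the isotype control mean of 1.61, 1.41, 2.06 and 1.51.

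In Foxp3 cells tag and RNA of KLRG1 went together cell by cell. Foxp3 cells with a Klrg1 UMI carried a median of 57.5 and 49 KLRG1 tags in sh-NC and 36.5 and 27.5 in sh-B7-H3 (1), against 2 or 3 in Foxp3 cells without one. The few Cd4 cells with a Klrg1 UMI carried 13 and 29 against 6 and 8, and 2 or 3 without one. In Ccl5-high Cd8 cells the link was weaker, with 5, 5, 6 and 2 tags in the 4 libraries with a Klrg1 UMI against 2, 2, 3 and 2 without. For NKG2A and NKG2D the medians showed no such link in Ccl5-high Cd8 cells: those with a Klrc1 UMI had a median of 11, 10, 10 and 8 NKG2A tags, the same as those without, although the mean in sh-B7-H3 (1) replicate 2 was 11.9 with against 8.44 without, and those with a Klrk1 UMI had 19, 17, 27 and 20 NKG2D tags against 19, 16, 26 and 19. The NKG2A and NKG2D tag values are therefore not read as protein levels of these receptors.

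**Figure D5:**
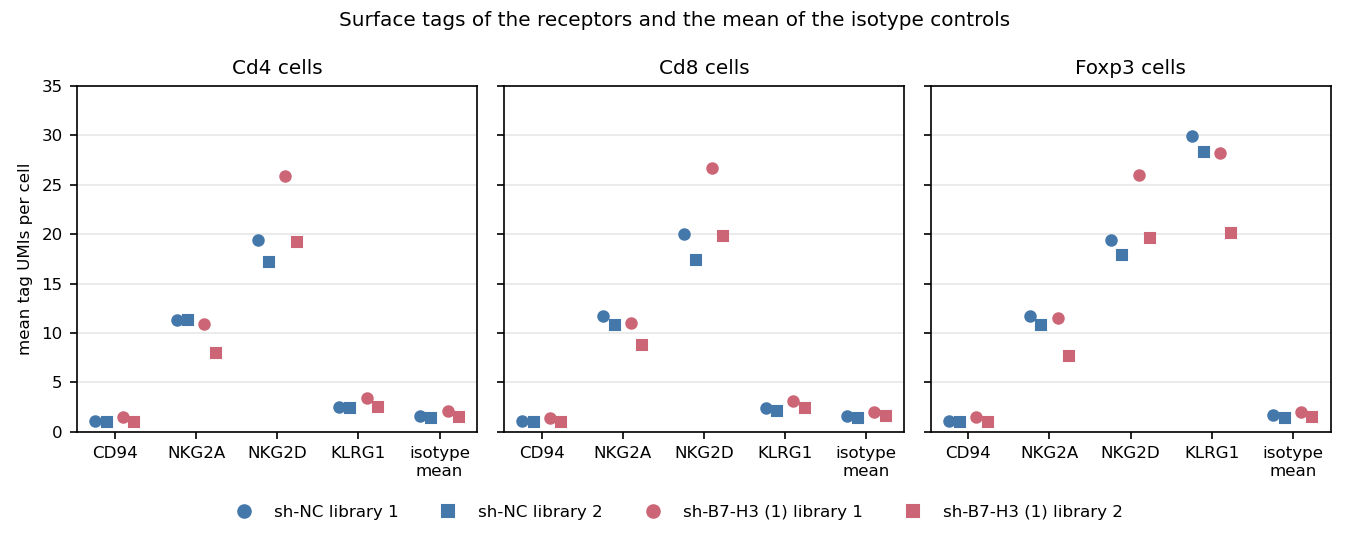
Mean UMIs per cell of the CD94, NKG2A, NKG2D and KLRG1 tags and the mean of the isotype control tags in Cd4, Cd8 and Foxp3 cells, with a point for each library. CD94 lies at or below the isotype mean in Cd4 cells, and KLRG1 stands far above it in Foxp3 cells (20.2 to 29.9 tags a cell).

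The sort was on CD3, so NK cells should be few, but NKT and gamma-delta T cells carry both CD3 and these receptors. Ncr1, a defining NK gene, was at 0 UMIs in every class and library, and Zbtb16, which marks NKT cells, at 1 UMI at most. The 8 NK genes of the marker list, 3 of them at 0 in Cd4 cells, summed to 25.0 and 14.6 CPM in sh-NC against 34.5 and 29.4 CPM in sh-B7-H3 (1) Cd4 cells and to 11.1 and 19.9 against 21.4 and 23.3 CPM in Cd8 cells. The 4 gamma-delta genes, with Trdv4 at 0, did move with the group, from 35.2 and 27.8 to 134 and 125 CPM in Cd4 cells and from 30.4 and 41.8 to 148 and 151 CPM in Cd8 cells. Within Ccl5-high cells the sh-B7-H3 (1) libraries were the lower ones in Cd4 cells, at 255 and 242 against 341 and 265 CPM, and the higher ones in Cd8 cells, at 254 and 272 against 211 and 242 CPM. Without every cell that had a Ncr1, Klrb1c or Trdc UMI, 6 of 6 receptor genes were called in Cd4 cells and 5 of 6 in Cd8 cells. Ncr1 had no UMI by which to remove a cell, and cells with Tcrg-C1 or Tcrg-C2 but no Trdc UMI stayed in. The part of gamma-delta T cells in the receptor changes was therefore not tested.

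Other lectin genes of the NK complex, from a list of 23, moved less uniformly. In Cd4 cells 8 passed the filter, 5 were called higher and 1 lower (median log2 fold change 2.47; 11.5% of all genes were called), and in Cd8 cells 11 passed, with 3 higher and 1 lower (median 0.27; 9.77% of all genes). Some genes passed only through the sh-B7-H3 (1) libraries, among them Klrb1 and Klra3 in Cd4 cells and Klri2 in Cd8 cells. The counts of calls and the medians therefore carry no weight of their own. Klri2, whose product is the activating partner of the Klre1 product, was nearly absent from sh-NC Cd8 cells and present in sh-B7-H3 (1), with 3 and 1 against 96 and 87 UMIs. Nearly all of these were again in Ccl5-high cells, with 1 and 0 against 84 and 87 UMIs. Klrb1, of the NKR-P1 family, rose in Cd4 cells from 0.609 and 0.946 to 6.03 and 6.95 CPM (2.98 ± 0.31), and Klrb1a of the same family from 1.15 and 3.07 to 15.7 and 16.9 CPM. Klra3, a Ly49 receptor for classical MHC molecules, rose from 0.744 and 3.63 to 14.2 and 12.2 CPM (2.55 ± 0.32). Cd69, an early activation marker, was the gene that fell, by 1.58 on the log2 scale in Cd4 cells and by 1.03 in Cd8 cells. In Foxp3 cells 3 passed and 1 was called, lower (Clec2i, a ligand of the NKR-P1 receptors, -1.14), against 0.614% of all genes. Within Ccl5-high cells, where 0.857% of genes were called in Cd4 and 2.08% in Cd8 cells, none of the list was called in Cd4 cells, and in Cd8 cells 1 was higher, Klri2, and 3 were lower, Cd69 and the Ly49 genes Klra7 and Klra9.

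A list of 19 adaptor and proximal signalling genes was not limited to partners of these receptors. Of 17 tested in each lineage, 1 was called in Cd4 cells (Sh2d2a, 1.09; median of the list 0.31), 2 in Cd8 cells (Sh2d1a, 1.14, and Sh2d2a, 1.04; median 0.24) and none in Foxp3 cells. Hcst (DAP10), the partner of NKG2D, lay at 539 and 549 against 820 and 859 CPM in Cd4 cells, groups that did not overlap but stayed under the fold limit (0.53 ± 0.03). Of the receptors' ligands, 3 were tested in Cd4 and in Cd8 cells and 1 was called in each, while 1 was tested and none called in Foxp3 cells. The called gene was Cdh1, the E-cadherin that KLRG1 binds. Cdh1 rose from 0.677 and 0.867 to 6.37 and 6.34 CPM in Cd4 cells (2.94 ± 0.30) and from 6.28 and 7.19 to 26.1 and 27.4 CPM in Cd8 cells (1.92 ± 0.11). In Cd4 cells it passed the filter on low counts only through the sh-B7-H3 (1) libraries, so that call carries no weight of its own. The tumor cells, which would display most ligands, were not sequenced here.

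Of the transcription factors and cytokine receptors known to act on these genes, many were called in Cd4 and Cd8 cells. In Cd4 cells 11 of 16 tested were called higher and 1 lower (median 1.58; 11.5% of all genes were called in either direction), and in Cd8 cells 7 of 17 higher and 2 lower (median 0.82; 9.77% of all genes). In Foxp3 cells 1 of 15 was called higher (0.614% of all genes), the T-box factor Eomes, on 6 and 7 against 14 and 15 UMIs. Eomes passed the filter there only through the sh-B7-H3 (1) libraries, so this call carries no weight of its own. Il2rb, the shared receptor chain for IL-2 and IL-15, rose in Cd4 cells from 72.7 and 80.5 to 571 and 554 CPM (2.79 ± 0.04). The T-box factors Eomes (2.47) and Tbx21 (2.33; 1.35 and 1.73 against 9.05 and 7.68 CPM) rose in Cd4 cells as well, and Bhlhe40 in Cd8 cells (2.26). Tcf7, which marks naive and stem-like T cells, fell by 1.31 on the log2 scale in Cd4 cells and by 1.31 in Cd8 cells. Runx3, chosen after its values were seen, rose in Cd4 cells from 75.3 and 82.7 to 277 and 285 CPM (1.74 ± 0.05) and differed by 0.57 in Cd8 cells. Within Ccl5-high cells none of the 16 genes tested from this list was called in Cd4 cells, where 0.857% of all genes were. In Ccl5-high Cd8 cells 1 of 16 was called, Tcf7, lower, where 2.08% of all genes were. Counts this small are not told apart from the shares of all genes.

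The genes whose pattern was most like each receptor's were ranked by Pearson's r of log2(CPM + 1) over 24 sums (6 classes in 4 libraries), among the 8567 genes that averaged 5 CPM or more. These sums share libraries and the Ccl5 split, so r is a description with no p. The sums of Ccl5-high Foxp3 cells came from 9 to 23 cells each, so 1 UMI weighs much there (1 Klrc2 UMI was 9.47 CPM in sh-B7-H3 (1) replicate 1). Klrd1 was nearest to Prf1, the pore-forming protein of killer granules (r = 0.92), Themis (0.87) and Ifitm10 (0.85), and Klrc1 to Gzma, a granule protease (0.93), Slc16a11 (0.91) and Cdh1 (0.90). Klrc2 was nearest to Hcst (0.96), Selenon (0.95) and Itga1, an integrin of tissue-resident T cells (0.94), and Klrk1 to Samd3 (0.95), Cdh1 (0.88) and Thy1 (0.88). Klre1 was nearest to Adora3 (0.93), Adrb1, the beta-1 adrenergic receptor (0.93), and Sema6d (0.91). Klrg1 had a set of its own, with the chemokine receptor Ccr2 (0.97), Atp2b1 (0.96) and Pim1 (0.96). Among the receptors Klrc1 and Klrk1 were closest (0.90), and Klrg1 ran against Klrd1 (-0.63).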

How the data were processed

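RNA and antibody tags of 2 sh-NC and 2 sh-B7-H3 (1) libraries were analysed from the deposited UMI counts. Per the labels and the paper's methods, the authors made these counts with Cell Ranger (version 6.1.1 in the matrix header, an earlier version in the paper's methods, and which of them made the counts is not settled) and its STAR aligner against mm10, without normalization, from 3′ libraries of the 10x Genomics kit. The strand setting is not given in the sources used here. The authors used Seurat (4.0.0) downstream, whose clusters and doublet calls were not used here.

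Called cells with 200 to 3000 genes and at most 5% mitochondrial UMIs were kept. Doublets were scored against 2 simulated pairs a cell (2000 variable genes, 30 components), and 14.5% to 16.6% a library were removed. Lineages were called from Cd4, Cd8a and Cd8b1, and Foxp3 UMIs as given in the report, and 23.4% to 28.5% of kept cells fell in no class. Counts were summed per class and library and tested with edgeR (4.0.16; TMM, filterByExpr, quasi-likelihood, Benjamini-Hochberg over all genes or tags). The lineage interaction was fitted on 12 sums and the interaction by Ccl5 level on 20, since Ccl5-high Foxp3 cells had under 20 cells in 3 libraries. Shares of cells used 2000 UMIs a cell, and the limit that a count of 0 allows is 3 counts. Limits on shares cover counting error only. Ccl5 was a cut on the same RNA, not an independent label. Of these steps, the edgeR and DESeq2 fits of the group effect were tested on simulated sums with the low spread between these libraries. At an adjusted p under 0.05, edgeR recovered 57% to 87% of simulated 2-fold changes over the classes, and DESeq2 22% to 76%. Doublet scoring, lineage calls, the Ccl5 split, thinning, interaction fits and tags were not simulated.

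Alternatives were DESeq2 (1.42.0), other filters, lineage and Ccl5 thresholds, a replicate block and leaving out each library. The 6 genes and all lists were chosen with earlier results of these data known. Named outside the 6 were the 3 genes of highest correlation with each and up to 4 called genes of each list with the largest fold change. Kept cells were 6394, 5205, 2918 and 3951 in the 4 libraries. Analyses ran in R 4.3.3 and Python 3.11.15.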

Additional observations from a re-analysis of the deposited data

Results flagged for a closer look

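The fold changes of Klrd1 and Klrg1 differed between lineages by the edgeR interaction term, which took the sums of 1 library as independent. For Klrd1, Cd4 minus Cd8 was 1.60 ± 0.08 (adjusted p = 1.1e-16, edgeR) and Cd8 minus Foxp3 -2.10 ± 0.36 (adjusted p = 0.00015), with the Foxp3 side resting on 9 to 38 UMIs a library, most of which in sh-B7-H3 (1) came from 1 and 3 cells. For Klrg1, Cd4 minus Cd8 was -0.96 ± 0.28 (adjusted p = 0.044, edgeR), Cd4 minus Foxp3 0.83 ± 0.20 (adjusted p = 0.0093) and Cd8 minus Foxp3 1.79 ± 0.23 (adjusted p = 8.0e-07), and the Cd4 side turned sign with stricter lineage calls.

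Between Ccl5-high and Ccl5-low cells (high minus low), fold changes differed in Cd4 cells for Klre1 (-2.43 ± 0.65, adjusted p = 0.023, edgeR) and Klrd1 (-0.74 ± 0.12, adjusted p = 4.4e-05). In Cd8 cells they differed for Klre1 (-2.20 ± 0.54, adjusted p = 0.015, edgeR), Klrk1 (-1.45 ± 0.26, adjusted p = 0.00027) and Klrc1 (-2.87 ± 0.46, adjusted p = 5.0e-05). Ccl5-low cells held 2 to 21 UMIs a library of Klre1 in either lineage and 10 to 21 of Klrc1 in Cd8 cells, so these differences rest on few molecules.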

How the results depend on the processing

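Within each alternative, the receptor genes' fold changes kept their direction and side of the thresholds in 517 of 578 values, lost the call in 26, gained it in 10 and turned sign in 15, and in 10 DESeq2 gave no adjusted p. In Foxp3 cells 1 gene (Klrd1) was called, and 0 with DESeq2, which gave it no adjusted p, or with stricter lineage calls, where it was not tested. In Ccl5-high Cd8 cells 0 were called, and 1 (Klre1) with no upper gene limit, stricter lineage calls, a Ccl5 threshold of 10 or 5, or without NK and gamma-delta marker cells (the last 2 chosen after seeing the data). In Ccl5-low Cd4 cells 3 were called, 1 without NK and myeloid marker cells or at Ccl5 thresholds of 10, 5 or 20 per 10000 UMIs, 6 at 40, and 1 to 2 leaving out a library. In Ccl5-low Cd8 cells 3 were called, 0 with DESeq2 (no adjusted p for them), 1 at a Ccl5 threshold of 5, and 2 to 3 leaving out a library. In Ccl5-low Foxp3 cells 0 were called and 1 at a threshold of 40. The cause of these moves was not tested.

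Signs turned for Klrg1 in Cd4 cells (-0.61, stricter lineage calls). For Klrg1 in Ccl5-high Cd4 cells they turned without doublet removal (-0.0302), with no upper gene limit (-0.81), at 10% mitochondrial UMIs (-0.52), without NK and myeloid marker cells (-0.31) and at a Ccl5 threshold of 5 (-0.19), with -0.27 to 0.57 leaving out a library. Klrc1 in Ccl5-high Cd8 cells turned at 10% mitochondrial UMIs (-0.0318), without NK and myeloid marker cells (-0.00956) and at Ccl5 thresholds of 40 (-0.0801) or 20 per 10000 (-0.0321), with -0.12 to 0.14 leaving out a library. Klrk1 there turned at a threshold of 5 (0.0653). Leaving out a library gave -0.11 to 0.97 for Klrc1 in Ccl5-high Cd4 cells, -0.0325 to 0.23 for Klrd1 in Ccl5-high Cd8 cells and 5 to 6 genes called in Cd4 cells. Apart from Klrg1 in Cd4 cells, none of the values that turned was a called change. The 12 shares of cells with a UMI moved by more than the spread between libraries in 23 of 24 cases at another thinning depth or none, and in none of 48 when a library was left out.

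Libraries of the same number did not deviate together (correlations -0.036, -0.036 and -0.012 in the 3 lineages), so the numbers do not pair them. With a replicate block the receptor genes called stayed at 6, 5 and 1 in Cd4, Cd8 and Foxp3 cells, 0, 3, 0, 3 and 0 in the Ccl5 classes, and Klrd1 in Cd4 cells was at 1.71. Ccl5-high Foxp3 cells could be tested only at thresholds of 10 (0 of 2 genes called) and 5 (1 of 2). Depth limits the genes with under about 20 UMIs in a library.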
